A study of Mus musculus with 6 samples.

Results

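The genes described here encode the proteasome, its regulators and its assembly factors, in whole left lungs of mice with and without ischemia-reperfusion injury. They were taken by name: protein-coding genes whose symbol begins with Psma, Psmb, Psmc, Psmd, Psme, Psmf or Psmg followed by a digit. This gave 49 of the 23194 genes in the table, and 48 of them passed the filter on low counts. Psma8, the alpha subunit of the testis proteasome, did not pass, with between 2 and 14 counts per library. Psmc3ip matched the name but encodes a meiotic recombination protein and not a subunit. RNA was sequenced from 3 naive lungs and from 3 lungs whose left pulmonary artery was ligated for 4 h and then reopened for 24 h of reperfusion. All 6 lungs came from adult wild-type C57BL/6 mice, and neither group carried a further allele or agent in the labels. The labels mention no sham operation for naive lungs, and effects of surgery and of ischemia cannot be told apart. Nothing in the labels states that the 3 lungs of a group came from separate litters or days, so p-values measure the spread between these lungs. Library totals ran from 18913487 to 34986276 counts, and the lung markers Sftpc, Scgb1a1 and Pecam1 were present in all 6.

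The proteasome is the protease that degrades ubiquitin-tagged proteins. Its 20S core is a barrel of alpha rings around beta rings, and the beta subunits Psmb5, Psmb6 and Psmb7 carry the catalytic sites. Interferon gamma and lymphoid or myeloid identity are known to induce replacements for these, Psmb8 for Psmb5, Psmb9 for Psmb6 and Psmb10 for Psmb7. The resulting immunoproteasome is known for cutting peptides for MHC class I. The 19S cap, made of Psmc ATPases and Psmd non-ATPase subunits, binds and unfolds substrates, while the PA28 (Psme1 to Psme3) and PA200 (Psme4) activators open the core without ubiquitin.

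The promoters of the catalytic subunits show how differently the exchanged partners are placed in the genome, and 2 pairs are printed because both partners had an entry in the RefSeq table (GRCm38.p6). Psmb7 had none. Each sequence runs from 250 bases before the annotated start to 50 after it. Capitals mark matches, on either strand, to GAAA followed by any 2 bases and GAAA again (an interferon-stimulated response element), TTCNNNGAA (a gamma-activated site), TGACNNNGC (an antioxidant response element core, also bound by NFE2L1) and CCAAT.
Psmb8: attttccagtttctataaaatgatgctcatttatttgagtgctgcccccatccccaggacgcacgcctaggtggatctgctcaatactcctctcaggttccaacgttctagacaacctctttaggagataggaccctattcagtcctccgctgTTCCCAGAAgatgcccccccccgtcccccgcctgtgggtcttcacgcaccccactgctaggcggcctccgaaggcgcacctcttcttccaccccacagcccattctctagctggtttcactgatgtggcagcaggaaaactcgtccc
Psmb5: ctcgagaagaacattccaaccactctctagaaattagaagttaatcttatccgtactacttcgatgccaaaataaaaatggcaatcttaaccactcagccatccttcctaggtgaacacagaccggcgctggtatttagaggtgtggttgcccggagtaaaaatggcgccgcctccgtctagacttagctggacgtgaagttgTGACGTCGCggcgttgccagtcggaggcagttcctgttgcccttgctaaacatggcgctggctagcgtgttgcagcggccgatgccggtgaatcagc
Psmb9: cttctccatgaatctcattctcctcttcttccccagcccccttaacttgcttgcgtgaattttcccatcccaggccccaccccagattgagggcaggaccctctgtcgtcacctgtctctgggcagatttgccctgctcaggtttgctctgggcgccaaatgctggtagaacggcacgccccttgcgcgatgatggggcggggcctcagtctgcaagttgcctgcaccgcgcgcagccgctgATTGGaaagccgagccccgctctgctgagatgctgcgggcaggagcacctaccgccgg
Psmb6: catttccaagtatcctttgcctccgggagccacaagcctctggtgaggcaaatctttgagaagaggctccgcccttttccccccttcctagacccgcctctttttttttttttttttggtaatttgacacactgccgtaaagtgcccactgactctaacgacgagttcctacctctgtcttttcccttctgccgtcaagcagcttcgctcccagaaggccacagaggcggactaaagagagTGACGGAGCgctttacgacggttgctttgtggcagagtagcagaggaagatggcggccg
The Psmb8 window lies on the plus strand at chr17:34197945-34198244 and the Psmb5 window on the minus strand at chr14:54617946-54618245. The Psmb9 window lies on the minus strand at chr17:34187281-34187580 and the Psmb6 window on the plus strand at chr11:70525107-70525406. The Psmb8 and Psmb9 windows lie wholly inside the gene spans used for counting (34197721 to 34201454 and 34181988 to 34187764). The Psmb5 and Psmb6 windows extend past the upstream end of their gene spans. Partners are therefore not compared at like positions, and sequence upstream of the Psmb8 and Psmb9 gene spans was not searched. Psmb8 held TTCCCAGAA, which starts 97 bases before the annotated start. Psmb5 held TGACGTCGC at 47 bases before the start and Psmb6 held TGACGGAGC at 9 bases before it. Psmb9 held CCAAT on the opposite strand at 8 bases before the start. Its window shares 275 of its 300 bases with that of Tap1, the peptide transporter gene that runs the other way. Over 41 proteasome genes with an entry, CCAAT was in the windows of 14 (34.1%) and in those of 41.1% of all 27025 genes. The response element was found for 5 of the 41 (12.2%) and for 3.99% of all genes. These 5 were Psmb3, Psmd4, Psmd9, Psme1 and Psmg4, and not Psmb8, Psmb9 or Psmb10. TTCNNNGAA was found for 3 (7.32%), Psmb8, Psmd2 and Psmg1, and for 9.55% of all genes. The Psmb10 window, not printed, held no match to any of these motifs. TGACNNNGC was found for 6 of the 41 (14.6%) and for 13.99% of all genes. A match is a stretch of letters, not a shown binding site. Each of the 4 printed windows held only the match named above, so overlap between motifs could not arise there.

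No proteasome gene passed the test, and most had fitted values slightly above 0. CPM, counts scaled to a common library size after TMM adjustment, are used to follow a gene between lungs, and fold changes are edgeR's log2 values of injured over naive lungs ± SE. The SE was derived from the edgeR test, as the absolute log2 fold change divided by the square root of the F statistic. By edgeR's quasi-likelihood test with Benjamini-Hochberg adjustment over 15486 genes, 0 of the 48 tested proteasome genes were called at an adjusted p under 0.05, where 3.11% of all tested genes were called (2.16% higher and 0.956% lower). At an unadjusted p under 0.05 there were 10 higher and 0 lower proteasome genes, against 9.06% and 7.66% of all genes. These 10 were Psmb4, Psmb5, Psmb3, Psma6, Psmc3, Psmd2, Psmd6, Psmd8, Psmd13 and Psmg1. DESeq2 called 2 genes higher, Psmb4 and Psmb5, which is 4.17% of the 48 where it called 3.78% of all genes higher, and limma-voom called 0 (1.99% of all genes). Psmb5 was the 1 gene of the set called higher with no filter on low counts, where 1.98% of all genes were called higher, and with the replicate block, where 2.67% were. The fitted change was above 0 for 41 of the 48, where 49.8% of all tested genes were above 0, and this count was the same with the other library scalings. The median log2 fold change of the 48 was 0.16, or 1.11-fold, and that of all tested genes was -0.00096. The lower and upper quartiles of the set were 0.077 and 0.21.

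**Figure D1:**
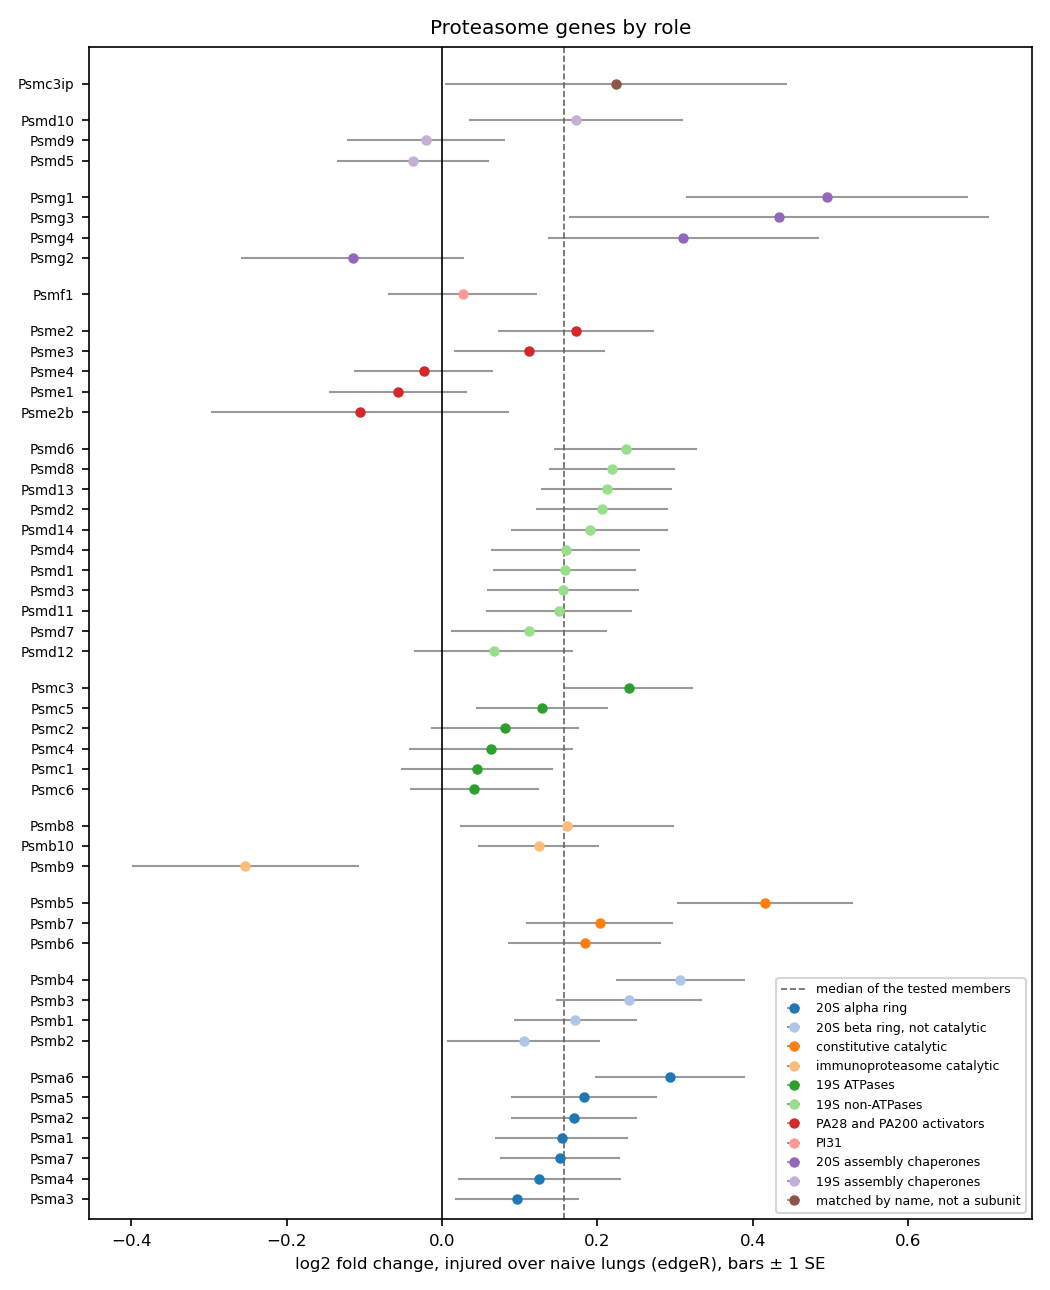
Log2 fold change of injured over naive lungs for the 48 tested proteasome genes, grouped by role, with bars of 1 SE on either side. The dashed line is their median of 0.16, and the points of the 20S and 19S subunits other than Psmb8, Psmb9 and Psmb10 all lie to the right of 0.

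The groups did not overlap for 24 of the 48, all higher in each injured lung than in each naive lung, where 12.3% of all tested genes behaved so. None of the 48 was lower in every injured lung, against 10.6% of all tested genes. The lungs were not alike in this. Injured lung 3 exceeded the highest naive lung for 42 of the 48 genes, injured lung 1 for 32 and injured lung 2 for 26, where the shares of all tested genes were 30.6%, 28.9% and 27.2%. Injured lung 3 was also the highest injured lung for 40 of the 48, a count not made over all tested genes. Without it the median was 0.10 and 38 of 49 tested genes were above 0, the filter then letting Psma8 through. Single lungs were therefore unequal in the size of the shift, and the lung with the largest contribution was injured lung 3.

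The alpha ring gates the entry of the 20S core. All 7 tested alpha subunits had fitted changes above 0, with a median of 0.15, and 6 of them did not overlap between groups. The largest was Psma6, at 74.0, 62.1 and 64.6 CPM in naive lungs 1 to 3 and 78.4, 79.9 and 87.7 CPM in injured lungs 1 to 3. Its log2 fold change was 0.29 ± 0.096 (adjusted p = 0.157). The smallest was Psma3 at 0.096 ± 0.079 (adjusted p = 0.610). Whether alpha subunits differed among themselves was not tested.

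The beta subunits without catalytic sites, Psmb1 to Psmb4, close the inner rings. Their median was 0.21 and 3 of the 4 did not overlap between groups. Psmb4 had the smallest adjusted p of the whole set, with 85.2, 80.2 and 86.3 CPM in naive lungs and 101.2, 100.01 and 110.2 CPM in injured lungs. Each injured lung was above each naive lung, and the log2 fold change was 0.31 ± 0.083 (adjusted p = 0.0902, or 0.0392 by DESeq2). Over the alternatives its adjusted p ran from 0.0392 to 0.317. Psmb2 had the smallest difference of this group, at 0.11 ± 0.098 (adjusted p = 0.661), and its groups overlapped.

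Among the constitutive catalytic subunits, Psmb5 had the highest fitted fold change. Psmb5, the chymotrypsin-like subunit beta5 (ENSMUSG00000022193, mm10 chromosome 14, 54614120 to 54617995), was at 56.6, 52.1 and 62.8 CPM in naive lungs and at 73.1, 68.7 and 87.2 CPM in injured lungs. The means were 57.2 ± 5.40 and 76.3 ± 9.67 CPM (SD, n = 3), 33.4% higher in the fit, with no overlap between groups. The log2 fold change was 0.42 ± 0.11 (edgeR adjusted p = 0.0928). The call depended on the method. It passed at an adjusted p of 0.0398 by DESeq2, 0.0444 with no filter on low counts and 0.0396 with the replicate block, and the range over all alternatives was 0.0396 to 0.315. The authors' deposited values include an adjusted p for 48 of the 49 genes, Psma8 having none. Of these 48 only Psmb5 was under 0.05 (0.0418, log2 fold change 0.38). Over all 15721 genes with a deposited adjusted p, 568 were called higher and 399 lower. The 1 higher call of 48 is not a larger share than 568 of 15721.

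Psmb6, the caspase-like subunit beta1, was at 67.1, 62.3 and 67.6 CPM in naive lungs and at 69.8, 69.8 and 84.0 CPM in injured lungs. The log2 fold change was 0.18 ± 0.099 (adjusted p = 0.399), and injured lung 3 stood apart from the other injured lungs. Psmb7, the trypsin-like subunit beta2, was at 75.5, 67.1 and 76.6 CPM in naive lungs and at 84.3, 77.6 and 90.4 CPM in injured lungs. Its log2 fold change was 0.20 ± 0.094 (adjusted p = 0.321). For both genes each injured lung was above each naive lung, by margins smaller than the range within a group.

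None of the 3 immunoproteasome subunits was called, and differences among them were not tested. Psmb8, or beta5i (ENSMUSG00000024338, chromosome 17, 34197721 to 34201454), was at 22.0, 19.4 and 15.5 CPM in naive lungs and at 20.7, 20.4 and 22.4 CPM in injured lungs. The groups overlapped, and naive lung 3 was the lowest of the 6 (log2 fold change 0.16 ± 0.14, adjusted p = 0.627). Psmb9, or beta1i (ENSMUSG00000096727, chromosome 17, 34181988 to 34187764), was at 38.2, 33.5 and 28.5 CPM in naive lungs and at 28.8, 31.9 and 23.4 CPM in injured lungs. It had the lowest fitted change of the 48 genes, -0.25 ± 0.15 (adjusted p = 0.435), and its groups overlapped too. Without injured lung 3 that value was -0.14 and without naive lung 3 it was -0.36. The table's coordinates place 212 bases of Psmb9 over Tap1 on the other strand, and whether the counting used strand is not given in the sources used here. Tap1 was at 53.2 ± 5.32 CPM (SD, n = 3) in the naive group and 55.1 ± 5.16 CPM in the injured group (log2 fold change 0.052 ± 0.11, adjusted p = 0.870). Nearly all of its promoter window is that of Psmb9, and whether Tap1 and Psmb9 differed in their change was not tested. Psmb10, or beta2i (ENSMUSG00000031897, chromosome 8, 105935728 to 105938392), was the steadiest of the 3. It was at 55.7, 55.6 and 57.9 CPM in naive lungs and at 60.5, 61.8 and 62.2 CPM in injured lungs. The groups did not overlap, but the difference was small (log2 fold change 0.12 ± 0.078, adjusted p = 0.482).

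Levels of different genes were compared with FPKM, which also divides by gene length. By the table's gene lengths the constitutive subunits were at 65.2 ± 5.35 FPKM for Psmb5, 67.5 ± 2.79 for Psmb6 and 62.6 ± 4.14 for Psmb7 in naive lungs (SD, n = 3). Psmb10 followed at 44.2 ± 0.360 FPKM. Psmb9 and Psmb8 were lower, at 11.5 ± 1.85 and 9.91 ± 1.84 FPKM. In injured lungs the means were 88.0 FPKM for Psmb5, 77.5 for Psmb6, 72.8 for Psmb7, 48.6 for Psmb10, 11.2 for Psmb8 and 9.77 for Psmb9. The order of some neighbours depends on the lengths used. The table's gene length for Psmb9, 2884 bases, is longer than its principal transcript in GENCODE M21, 1352 bases, so its FPKM understates a level per transcript. For Psmb8 these lengths were 1907 and 1628 bases. With principal transcript lengths, an alternative chosen after the data were seen, Psmb9 was at 24.6 ± 3.95 FPKM in naive lungs, above Psmb8 at 11.6 ± 2.16 (SD, n = 3). In injured lungs they were at 20.8 ± 3.25 and 13.1 ± 0.656, and no lung of one gene overlapped a lung of the other. On these lengths Psmb6 was also above its neighbours in naive lungs, at 81.7 ± 3.38 FPKM against 63.2 ± 5.18 for Psmb5 and 62.6 ± 4.14 for Psmb7. Psmb10, at 42.8 ± 0.349, stayed between these and Psmb9.

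**Figure D2:**
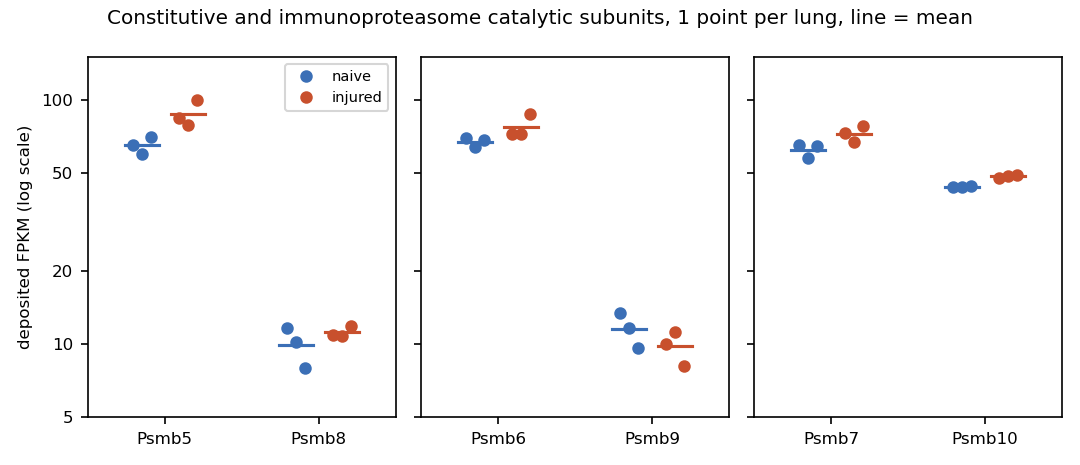
Deposited FPKM, on a log axis, of each constitutive catalytic subunit and the immunoproteasome subunit that replaces it, with 1 point per lung and a line at the mean of 3 lungs. Psmb8 and Psmb9 lie between 7.96 and 13.3 FPKM in all 6 lungs, below Psmb10 and the 3 constitutive subunits.

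The ratio of each immunoproteasome subunit to its partner within a lung does not depend on library scaling. Psmb8 over Psmb5 was 0.178, 0.170 and 0.113 in naive lungs and 0.129, 0.136 and 0.118 in injured lungs. Naive lung 3 was the lowest of all, so the groups overlapped. On the log2 scale the means were -2.73 ± 0.36 and -2.97 ± 0.11 (SD, n = 3), a difference of -0.24 (exact two-sided permutation p = 0.4). Without naive lung 3 the difference was -0.45. Psmb9 over Psmb6 was 0.191, 0.180 and 0.141 in naive lungs and 0.138, 0.153 and 0.0932 in injured lungs. Injured lung 2 lay above naive lung 3, and the log2 means were -2.56 ± 0.23 and -2.995 ± 0.38 (SD, n = 3). The difference was -0.43 (exact two-sided permutation p = 0.2), or -0.22 without injured lung 3. Psmb10 over Psmb7 was 0.675, 0.757 and 0.690 in naive lungs and 0.656, 0.727 and 0.628 in injured lungs. Its difference was -0.079 (exact two-sided permutation p = 0.4), and it moved to -0.029 without naive lung 2. These 3 pairs were the family tested, and each adjusted p over them was 0.4, where 0.1 is the smallest raw p that 3 against 3 lungs allow. The mean ratio was lower in injured lungs in all 3 pairs. At this group size the permutation test cannot give a p under 0.05, so it can show neither a change nor its absence.

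**Figure D3:**
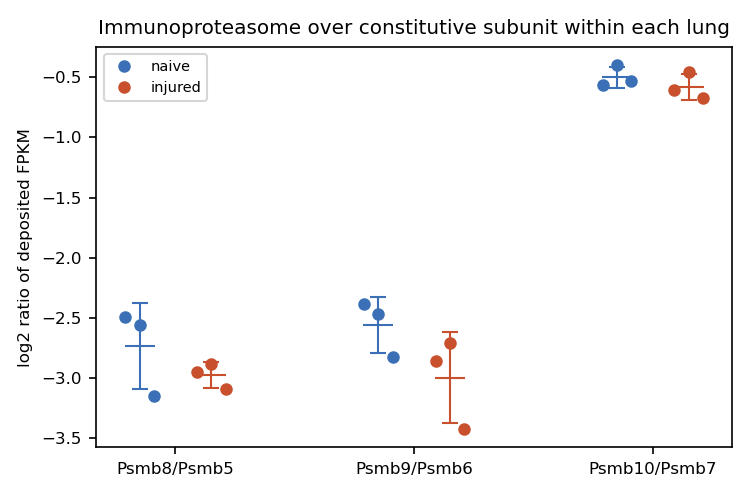
Log2 ratio of FPKM of the immunoproteasome subunit over its constitutive partner in each lung, with the mean and SD of 3 lungs per group. The groups overlap in all 3 pairs, and the mean of the injured lungs is lower by 0.24, 0.43 and 0.079 log2 units.

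Together Psmb8, Psmb9 and Psmb10 made up 25.6%, 26.5% and 23.4% of the summed FPKM of the 6 catalytic genes in naive lungs and 23.0%, 24.4% and 20.6% in injured lungs. Injured lung 2 was above naive lung 3, so these shares overlapped as well. The means were 25.2% ± 1.59 and 22.7% ± 1.93 (SD, n = 3), a difference of -2.48 percentage points. With principal transcript lengths, an alternative chosen after the data were seen, the means were 27.6% and 24.4%. In naive lungs Psmb10 made up 41.4% of its pair with Psmb7, while Psmb8 made up 13.2% and Psmb9 14.6% of theirs. With principal transcript lengths these shares were 40.6%, 15.6% and 23.1%.

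The 19S ATPases, the ring that unfolds substrates, gave 0 calls. All 6 had fitted changes above 0 with a median of 0.072, from 0.042 ± 0.083 for Psmc6 to 0.24 ± 0.084 for Psmc3 (adjusted p = 0.864 and 0.182). Psmc3 was at 101.5, 107.3 and 105.3 CPM in naive lungs and at 128.5, 114.99 and 127.4 CPM in injured lungs, with no overlap. It overlaps Slc39a13 on the other strand over 4579 bases in the table's coordinates. Of the others only Psmc5 did not overlap between groups. Without injured lung 3 the changes of Psmc1, Psmc2 and Psmc4 were -0.024, -0.00012 and -0.037.

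The 11 non-ATPase subunits of the 19S cap include the ubiquitin receptor Psmd4 and the deubiquitinase Psmd14. All 11 were above 0, with a median of 0.16, and 5 did not overlap between groups. Their differences ran from 0.067 ± 0.10 for Psmd12 (adjusted p = 0.813) to 0.24 ± 0.092 for Psmd6 (adjusted p = 0.233). Psmd2, a large scaffold subunit of the cap, had the highest CPM of the group, at 168 ± 4.54 (SD, n = 3) in the naive group and 194 ± 13.7 in the injured group. Psmd14 was at 0.19 ± 0.10 and Psmd4 at 0.16 ± 0.096. Over the 31 tested 20S and 19S subunits other than Psmb8, Psmb9 and Psmb10, the median was 0.16 and 31 were above 0. Injured lung 3 was the highest injured lung for 27 of the 31 and injured lung 2 for 0, again without a count over all tested genes.

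**Figure D4:**
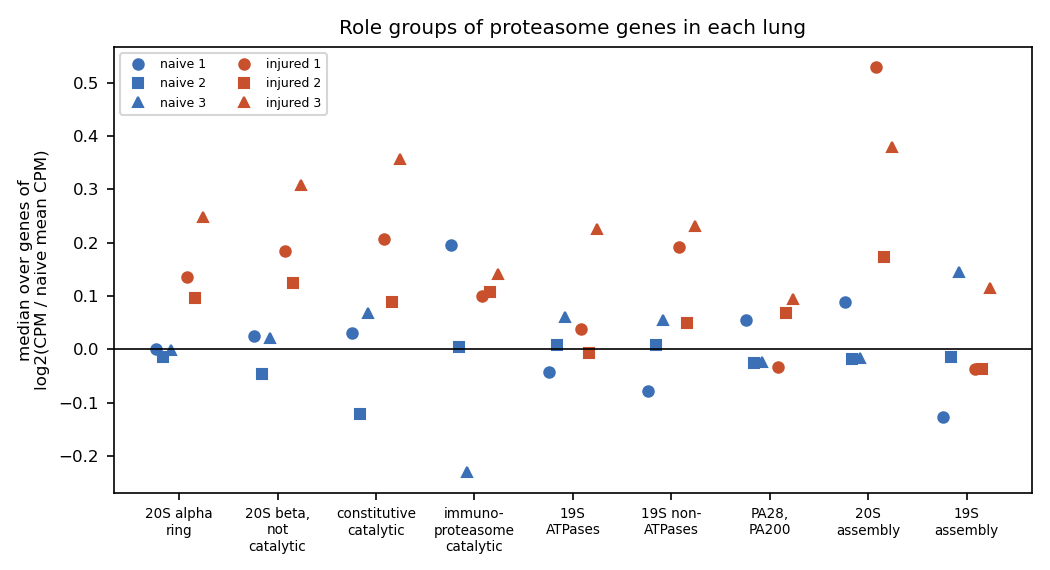
Median over the tested genes of each role of log2 CPM relative to the naive mean, for each naive and injured lung. Injured lung 3 (triangles) is the highest lung for the 20S, constitutive catalytic and 19S subunit groups, and the immunoproteasome group has its widest spread among naive lungs, from -0.23 to 0.19.

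None of the activators was called. Psme1, the PA28 alpha subunit, was at 103.7, 106.9 and 102.6 CPM in naive lungs and at 98.7, 92.7 and 109.7 CPM in injured lungs (log2 fold change -0.056 ± 0.089, adjusted p = 0.819). Psme2, the PA28 beta subunit that pairs with it and is likewise known to respond to interferon gamma, was at 64.4, 61.6 and 59.3 CPM in naive lungs and at 65.1, 64.7 and 78.9 CPM in injured lungs. Its groups did not overlap, by a margin of less than 1 CPM, with injured lung 3 apart from the rest (log2 fold change 0.17 ± 0.10, adjusted p = 0.440). Psme3, the nuclear PA28 gamma, was at 63.3, 65.8 and 76.5 CPM in naive lungs and at 71.2, 72.9 and 78.2 CPM in injured lungs (log2 fold change 0.11 ± 0.097, adjusted p = 0.632). Psme4, or PA200, was at 96.8, 89.9 and 93.0 CPM in naive lungs and at 91.1, 84.5 and 99.5 CPM in injured lungs (log2 fold change -0.024 ± 0.089, adjusted p = 0.930). For Psme1, Psme3 and Psme4 the groups overlapped. Psme2b, a copy of Psme2 that lies wholly inside Gm12185 on the same strand in the table, is uncertain (log2 fold change -0.11 ± 0.19, adjusted p = 0.848). Psmf1, the regulator PI31, was at 37.3 ± 2.93 CPM (SD, n = 3) in the naive group and 37.9 ± 1.495 CPM in the injured group (log2 fold change 0.026 ± 0.096, adjusted p = 0.928).

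The chaperones of the 20S core, Psmg1 to Psmg4, lay between 0.740 and 11.5 FPKM on average in naive lungs. Psmg1, which pairs with Psmg2 to seed the alpha ring, was at 6.79, 5.34 and 6.26 CPM in naive lungs and at 9.13, 7.18 and 9.70 CPM in injured lungs. Each injured lung was above each naive lung, and its log2 fold change of 0.50 ± 0.18 was the highest of the 48 (adjusted p = 0.204). Its partner Psmg2 had the lowest value among the 20S chaperones, -0.12 ± 0.14 (adjusted p = 0.759). Psmg3 and Psmg4, which form the other chaperone pair, were at 0.43 ± 0.27 and 0.31 ± 0.17. Among the chaperones of the 19S base, Psmd10 was at 0.17 ± 0.14, Psmd9 at -0.020 ± 0.10 and Psmd5 at -0.037 ± 0.098 (adjusted p = 0.598, 0.949 and 0.896). Psmc3ip, the gene that is not a subunit, was at 0.22 ± 0.22 (adjusted p = 0.680).

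Proteasome genes with other names were followed from a separate list. Of 16 tested subunits and partners outside the naming rule, 0 were called, and the median log2 fold change was 0.058. An unadjusted edgeR p under 0.05, in either direction, was found for 3 of them. Over all tested genes 9.06% were higher and 7.66% lower at that p. Adrm1, the ubiquitin receptor of the 19S cap, was at 0.13 ± 0.091 (adjusted p = 0.541), and Pomp, the maturation factor of the 20S core, at 0.079 ± 0.082 (adjusted p = 0.698). The most abundant members, Ubqln1 and Rad23b, which carry substrates to the proteasome, were at -0.043 ± 0.10 and 0.086 ± 0.094. Shfm1, the small 19S subunit also called Sem1, is named after its values were seen. It was at 42.4 ± 1.94 CPM (SD, n = 3) in the naive group and 51.6 ± 0.878 CPM in the injured group with no overlap (log2 fold change 0.28 ± 0.083, adjusted p = 0.119). Nfe2l1, the transcription factor known to raise proteasome genes when the proteasome is impaired, was at 419 ± 15.4 CPM (SD, n = 3) in the naive group and 452 ± 15.8 CPM in the injured group (log2 fold change 0.11 ± 0.085, adjusted p = 0.575). The 6 genes of its axis gave 0 calls, and Vcp, the segregase that extracts substrates, was at 0.16 ± 0.089. Of 6 ubiquitin and E1 genes 0 were called, with Ubb at -0.10 ± 0.12 and Uba1 at 0.13 ± 0.081.

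MHC class I loading, which uses peptides from the immunoproteasome, gave 0 calls among 12 tested genes and a median of -0.029. H2-D1 was at 0.14 ± 0.088 and B2m at -0.16 ± 0.091 (adjusted p = 0.480 and 0.423). Nlrc5, the transactivator of class I genes and of Psmb9, was at 20.6, 16.3 and 14.8 CPM in naive lungs and at 13.0, 14.8 and 8.18 CPM in injured lungs (log2 fold change -0.53 ± 0.22, adjusted p = 0.267). Among 19 tested genes of the interferon gamma response 1 was called, lower, and the median was -0.11. This count was 5 by DESeq2, 3 with the replicate block, 4 without naive lung 3, 3 without injured lung 2 and 2 without naive lung 2. Gbp3, an interferon-induced GTPase, fell by 0.84 ± 0.12 on the log2 scale (adjusted p = 0.00690), from 35.4 ± 4.98 to 19.8 ± 0.884 CPM. Irf1, a transcription factor that takes part in the induction of Psmb8, Psmb9 and Psmb10, was at -0.096 ± 0.097 (adjusted p = 0.688). Ifng itself had 7, 3 and 4 counts in the naive libraries, against 2, 1 and 6 after injury, and was not tested.

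The lungs also differed in their markers of blood cells, which carry immunoproteasome subunits at rest. In bulk RNA, fewer cells of a type and less RNA per cell cannot be told apart. Of 8 pan-leukocyte genes 4 were called higher and 0 lower, Rac2, Coro1a, Arhgdib and Cd53, with log2 fold changes from 0.48 to 0.87, while Ptprc was at 0.19 ± 0.15 (adjusted p = 0.598). The summed level of this list ran from 579 to 656 CPM in the naive group and from 743 to 909 CPM in the injured group. Neutrophil markers gave 8 higher calls of 12, led by Ly6g, S100a8, S100a9 and Retnlg, and their sum ran from 185 to 249 CPM in the naive group and from 1487 to 2001 CPM in the injured group. Of 7 monocyte and macrophage markers 4 were called higher, Cd14, Ccr2, Ly6c2 and Cd68, with sums of 6878 to 7922 CPM and 7015 to 7700 CPM. T cell markers gave 3 lower calls of 10, Lef1, Cd4 and Cd247, with sums of 63.3 to 74.2 CPM and 36.0 to 40.3 CPM. Of the 10, 0 had a fitted change above 0, the median was -0.77, and 10 had an unadjusted edgeR p under 0.05. At that p 7.66% of all tested genes were lower. Dendritic cell markers gave 3 lower calls of 8, the MHC class II genes H2-Aa and H2-Ab1 and the invariant chain gene Cd74. The sums of this list were 2083 to 2123 CPM in the naive group and 1357 to 1478 CPM in the injured group. Of the 8 dendritic cell markers 0 had a fitted change above 0, the median was -0.58, and 7 had an unadjusted edgeR p under 0.05. Which cells the changes in H2-Aa, H2-Ab1 and Cd74 came from was not tested. The counts of called markers moved when 1 lung was left out. That also leaves fewer lungs for the test, and calls over all genes fell too. The pan-leukocyte count was 1 without injured lung 1 or 2 and 2 without naive lung 2. The neutrophil count was 4 without naive lung 1 or 3, 5 without injured lung 1 and 9 without injured lung 3. The monocyte and macrophage count was 1 without naive lung 2 and 2 without naive lung 1 or 3 or injured lung 1. The T cell count was 1 without any lung other than injured lung 2, 2 without that lung, 1 with the replicate block and 6 by DESeq2. The dendritic cell count was 1 without naive lung 2 or injured lung 1, 2 without naive lung 1 and 5 by DESeq2. The sums did not overlap between groups for the pan-leukocyte, neutrophil, T cell and dendritic cell lists, and overlapped for monocytes and macrophages. A sum adds CPM without weights, so the most abundant genes of a list dominate it. Among the 7 monocyte and macrophage markers 6 had fitted changes above 0, with a median of 0.75. The interferon gamma response list summed to 1230 to 1351 CPM in the naive group and 1110 to 1203 CPM in the injured group, also without overlap. The part of these cells in the values of Psmb8, Psmb9 and Psmb10 was not tested.

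No marker was called in the other lists, although 2 B cell markers were called lower without naive lung 3 and 1 heart muscle marker without injured lung 3. B cell markers (6 tested) summed to 92.0 to 125 CPM in the naive group and 88.9 to 92.6 CPM in the injured group, with Cd79a at -0.25 ± 0.14 and Cd79b at -0.20 ± 0.10. Of these 6, 0 had a fitted change above 0, the median was -0.34, and 3 had an unadjusted edgeR p under 0.05. NK cell markers (6 tested) summed to 25.7 to 43.1 CPM and 22.0 to 32.9 CPM, with Gzma at -0.37 ± 0.21 and Nkg7 at -0.46 ± 0.22. For NK cells too 0 of 6 were above 0, with a median of -0.34, and 1 had an unadjusted edgeR p under 0.05. The endothelial sum was 4014 to 4342 CPM in the naive group and 3272 to 3899 CPM in the injured group, without overlap, with Pecam1 at -0.25 ± 0.097 and Cdh5 at -0.23 ± 0.11. Lung epithelium was present in all libraries, with Scgb1a1 at -0.12 ± 0.19 and Sftpc at -0.14 ± 0.11, and Col1a1 and Col1a2 marked fibroblasts at 0.080 ± 0.53 and -0.12 ± 0.35. Heart muscle markers summed to 401 to 711 CPM in the naive group and 115 to 549.6 CPM in the injured group, with Myh6 at -0.72 ± 0.71 and Actc1 at -1.04 ± 0.39. Nppa, an atrial hormone, was the only listed marker at 0 in any library.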

How the data were processed

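RNA was sequenced from 6 mouse left lungs, 3 per group, with the NEBNext Ultra II kit per the labels' protocols. Build mm10 and the tools HTSeq, STAR, STAR-Fusion, edgeR and DESeq2 come from the submitters' processing notes. For versions and the strand setting of the counting, the sources used here state nothing. The authors deposited 1 table with read counts, a normalized signal (counts divided by 1 factor per library), FPKM values (recovered from counts, gene length and column totals), log2 fold changes and p-values per gene, per the file headers. Total counts ran from 18913487 to 34986276 per library. In every pair of libraries at least 87.1% of genes had different counts.

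Counts were tested with edgeR 4.0.16 (filterByExpr, TMM, robust quasi-likelihood F test, group as the only term, two-sided, Benjamini-Hochberg over 15486 genes) in R 4.3.3. Within-lung FPKM ratios were compared by exact permutation of the 6 lungs. Alternatives were other library scalings, filters, DESeq2 1.42.0, limma-voom (limma 3.58.1), the replicate number as a block, and leaving out each library. On simulated counts for this comparison (15335 genes tested) the calls included 77 of 100 genes made to differ by a log2 value of 1 and 98 of 100 by a log2 value of 2, with 18 false among 193. Smaller changes, the size seen here, were not simulated. The members and lists were chosen with earlier results of these data known. The text gives lung-by-lung values for the catalytic subunits and activators, and the extremes of each other role. Of context lists it names called members (at most 4), or the 2 most abundant, plus Irf1, Tap1, Nlrc5, Nfe2l1, Pomp, Adrm1, Ptprc and Ifng. One further gene of that rule is not reported here. Psma6, Psmb4, Psmc3 and Psmg1 were given lung by lung, and Psmd2, Psmd4, Psmd14 and Shfm1 added, after their values were seen. Of the members, 18 overlap another gene of the table, 15 of them on the other strand only. Counting error is covered only as far as replicates show it.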

Additional observations from a re-analysis of the deposited data

How the results depend on the processing

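The number of proteasome genes called higher was 0 with all 6 libraries and 0 without any 1 library. It was 2 by DESeq2 (Psmb4 and Psmb5), 1 with no filter on low counts and 1 with the replicate block (Psmb5 in both). The number called lower was 0 under each alternative run. The median log2 fold change of the tested members was 0.15 to 0.17 over scalings, filters, tools and the block, and 0.10 to 0.20 with 1 library left out. Over all genes DESeq2 called 585 higher and 417 lower, and no filter gave 269 lower. With 1 library left out, 145 to 333 genes were called higher and 48 to 146 lower. Over the context lists together 16 were called higher and 7 lower, with 11 lower with no filter and 16 lower by DESeq2, and with 1 library left out 8 to 16 higher and 3 to 10 lower.

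Of 624 fitted values of single members under alternatives, 609 kept their direction and side of the threshold, 4 became called (Psmb5 in 3 and Psmb4 in 1), and 11 changed sign, each with a size under 0.05. With 1 library left out Psmc2 ran from -0.00012 to 0.13, Psmd5 from -0.10 to 0.036, Psmd9 from -0.094 to 0.026, Psme4 from -0.086 to 0.032 and Psmf1 from -0.044 to 0.063. The changes of sign were Psmd12 without naive replicate 1 (-0.0052), Psmc1, Psmd5 and Psmf1 without naive replicate 3 (-0.023, 0.036 and -0.044), Psmd9 and Psmf1 without injured replicate 1 (0.0038 and -0.0040), Psmd9 and Psme4 without injured replicate 2 (0.026 and 0.032), and Psmc1, Psmc2 and Psmc4 without injured replicate 3 (-0.024, -0.00012 and -0.037). The ratio differences ran from -0.45 to -0.12 for Psmb8 over Psmb5, -0.58 to -0.22 for Psmb9 over Psmb6 and -0.14 to -0.029 for Psmb10 over Psmb7 with 1 library left out, and the share difference from -3.36 to -1.44 percentage points.

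The labels give same-numbered libraries no link other than the number. Their deviations from the group means correlated at 0.105, -0.083 and 0.19 across genes. Naive replicate 1 correlated best with injured replicate 2, and naive replicate 3 with injured replicate 3. Deviations within a group sum to 0, so these correlations cannot decide whether libraries were paired. With the replicate block 413 genes were called higher and 208 lower, and the members' median was 0.16. The mean paired differences of the ratios, -0.24, -0.43 and -0.079, equal the unpaired ones by arithmetic and are no check on them. Every member other than Psma8, Psmc3ip and Psmg3 had over 100 counts in each library, and those 3 have the least depth behind their values.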
